A study of Homo sapiens with 8 samples.

Results

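The protocadherin genes described here were the 58 genes with reads that carry a symbol of the 3 protocadherin clusters on chromosome 5 (PCDHA, PCDHB and PCDHG) or of a numbered single protocadherin, out of 29937 genes and unnamed loci with reads. They were chosen by symbol alone, leaving out PCDH11X and PCDH11Y. Reads were summed per gene over the assembled transcripts that carry a gene name, 115 of the 125 transcripts listed under these symbols, with 6449 reads. The members were 13 PCDHA, 14 PCDHB, 21 PCDHG and 10 single genes, with 687, 1889, 1408 and 2465 reads. Another 7 genes of the same name pattern in GENCODE 29 had no read in any library: PCDHA5, PCDHA8, PCDHA14, PCDHB1, PCDHB8, PCDHGB3 and PCDH12.

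Long reads of polyadenylated RNA were made on a PacBio Sequel II instrument from H1, an established line of human embryonic stem cells. The 8 libraries form 4 groups of 2 repeats: undifferentiated cells (hPSC) and cells differentiated for 5 days to ectoderm, endoderm or mesoderm. Ectoderm medium held 15% serum replacement with the inhibitors A83-01, PNU-74654 and Dorsomorphin at 2 µM each. Endoderm medium held WNT3A and 100 ng/ml Activin A. Mesoderm medium held 100 ng/ml VEGF, 100 ng/ml BMP4 and 10 ng/ml bFGF throughout, and 100 ng/ml Activin A for only the opening 24 h. Each layer was compared with the same 2 hPSC libraries, so the 3 comparisons share their controls, and all groups come from 1 cell line. The question was which protocadherins, and which first exons of the clusters, are read in pluripotent cells and in the 3 layers.

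Protocadherins are cadherin-family membrane proteins whose extracellular cadherin repeats bind the same isoform on a neighbouring cell. In the PCDHA and PCDHG clusters many large variable exons, each with its own promoter, lie in a row, and each encodes the extracellular and transmembrane parts of a protein. The variable exon that is transcribed is spliced to a short set of constant exons shared by the whole cluster, which encode the common cytoplasmic end, so that promoter choice sets which isoform is made. PCDHB genes are single large exons with no constant exons. In neurons the choice of promoter differs from cell to cell and gives each cell its own surface identity, whereas the C-type exons at the end of the PCDHA and PCDHG clusters (PCDHAC1, PCDHAC2, PCDHGC3, PCDHGC4 and PCDHGC5) are known for a less random, more broadly shared use. The single, or non-clustered, protocadherins such as PCDH10 and PCDH18 are ordinary genes that act in cell adhesion, sorting and migration.

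A long read that runs through the junction with the constant exons shows which variable exon was spliced to them. Here each read was counted with the structure of the assembled transcript it was assigned to, and single reads were not examined. Most PCDHA and PCDHG reads were assigned to transcripts with this junction. The junctions of the 8 members on which the results below turn most are shown as RNA-sense DNA from GRCh38, plus strand, with the last 30 bases of the variable exon in lower case and the opening 30 bases of constant exon 1 in capitals. The letters before the junction differ between members and those after it are the same within a cluster.
PCDHA4: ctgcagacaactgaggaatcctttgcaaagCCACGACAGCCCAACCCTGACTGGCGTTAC
PCDHA11: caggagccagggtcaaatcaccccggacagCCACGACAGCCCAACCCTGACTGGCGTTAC
PCDHA12: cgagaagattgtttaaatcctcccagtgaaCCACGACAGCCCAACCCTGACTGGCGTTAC
PCDHAC2: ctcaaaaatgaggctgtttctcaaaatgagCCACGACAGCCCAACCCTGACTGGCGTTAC
PCDHGB4: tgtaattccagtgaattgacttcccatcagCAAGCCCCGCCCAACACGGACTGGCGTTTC
PCDHGB7: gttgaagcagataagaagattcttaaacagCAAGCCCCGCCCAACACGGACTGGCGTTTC
PCDHGA11: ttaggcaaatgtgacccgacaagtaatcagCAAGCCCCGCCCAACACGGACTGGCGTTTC
PCDHGC3: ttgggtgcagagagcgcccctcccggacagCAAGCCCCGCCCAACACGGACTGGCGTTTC

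Constant exon 1 lies at chr5:140978949-140979007 in PCDHA and at chr5:141494807-141494865 in PCDHG. Both are 59 bases long, and 39 of the 59 bases (66.1%) are the same without gaps. In GENCODE 29 the PCDHA exon is shared by 15 genes and the PCDHG exon by 22. The variable exons that join it are far longer: 2499 bases in PCDHA4, 3249 in PCDHA11, 2397 in PCDHGB4 and 2544 in PCDHGC3. All 31 assembled transcripts that reach a constant exon end their first exon at a variable-exon end of GENCODE 29.

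The promoters of the clusters share a run of letters, shown for 6 members because these promoters are what the choice of first exon rests on. The sequences are 60 bases before the start of the gene in RefSeq (GRCh38.p14, plus strand), with the letters CGCT common to all 6 in capitals.
PCDHA4: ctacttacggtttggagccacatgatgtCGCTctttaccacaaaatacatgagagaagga
PCDHB2: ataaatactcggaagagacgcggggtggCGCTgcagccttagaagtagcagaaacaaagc
PCDHB7: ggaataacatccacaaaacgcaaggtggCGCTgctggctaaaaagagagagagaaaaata
PCDHGB4: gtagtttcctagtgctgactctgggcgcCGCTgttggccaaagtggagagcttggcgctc
PCDHGB6: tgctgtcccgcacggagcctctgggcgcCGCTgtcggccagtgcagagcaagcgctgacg
PCDHGC3: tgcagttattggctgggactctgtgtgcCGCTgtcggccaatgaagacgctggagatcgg

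These windows lie at chr5:140806967-140807026 for PCDHA4, chr5:141094532-141094591 for PCDHB2, chr5:141172554-141172613 for PCDHB7, chr5:141387605-141387664 for PCDHGB4, chr5:141407912-141407971 for PCDHGB6 and chr5:141475868-141475927 for PCDHGC3. RefSeq promoters matched 42 of the 48 clustered members, and the table holds 47 clustered genes. In the 250 bases before the start, the letters GNCGCTNT stood on the gene's strand in 9 of 13 PCDHA, 18 of 20 PCDHG and 1 of 14 PCDHB promoters, and in 5.15% of all 35116 promoters (9.71% on either strand). The letters GGTGGCGCTG stood in 11 of 14 PCDHB promoters and in none of the 13 PCDHA or 20 PCDHG promoters, and in 0.154% of all promoters (0.225% on either strand). Their common part, GNCGCT, which overlaps both, was found in 11 of 13 PCDHA, 13 of 14 PCDHB and 19 of 20 PCDHG promoters against 23.1% of all promoters (37.5% on either strand). It was not found in PCDHA9, PCDHAC2, PCDHB8 or PCDHGB7. These letters were picked from the same promoters, so the counts are a description of them.

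Library totals ranged from 503840 to 586183 reads in hPSC, endoderm and mesoderm and were 1180888 and 967206 in ectoderm, so a count of 0 allowed up to 2.54 to 5.95 CPM, counts scaled to the same library total (counting error only). Between repeats, log2 levels across genes correlated at r = 0.873 (hPSC) and at 0.946 to 0.967 (the layers), and the 2 hPSC libraries differed from each other more than the other repeats did (chi-square per degree of freedom 9.69 against 1.77 to 2.57). Transcripts averaged 4406 and 4650 nt a read in ectoderm against 2975 to 3840 nt in the other libraries. Of marker lists, 8 of 9 ectoderm genes were higher in ectoderm and 7 of 7 tested endoderm genes were higher in endoderm. In mesoderm 3 of 5 tested mesoderm genes were higher and 1 lower. There TBXT had 1 and 0 reads, MESP1, FOXF1 and MIXL1 had none, and all 8 genes of an amnion and trophoblast list were higher, with a summed level of 6735 to 7377 CPM against 19.6 to 82.8 CPM in hPSC. In endoderm the summed level of 10 neuron genes was 1657 to 1721 CPM against 262 to 358 CPM in hPSC, with DCX, NEUROD1, NEUROG2 and ELAVL4 at 0 reads and most of the sum from TUBB3. The part of such cells in the results below was not tested, and in bulk RNA fewer cells of a type and less RNA per cell cannot be told apart.

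Protocadherin reads were most frequent in ectoderm. The 58 members together took 614 and 454 CPM of the hPSC reads, 1936 and 2137 for ectoderm, 687 and 645 for endoderm and 685 and 750 for mesoderm. The 2 ectoderm libraries stood above all the others, and the hPSC libraries were the lowest. Reads were found for 43 members in hPSC, 54 for ectoderm, 49 for endoderm and 46 for mesoderm. All 8 libraries held reads of 21 members. The deeper ectoderm libraries give more chance of a read to rare members, so these counts of members are not compared. A long read stands for 1 transcript whatever its length, so CPM values here count transcripts and are not divided by length.

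**Figure D1:**
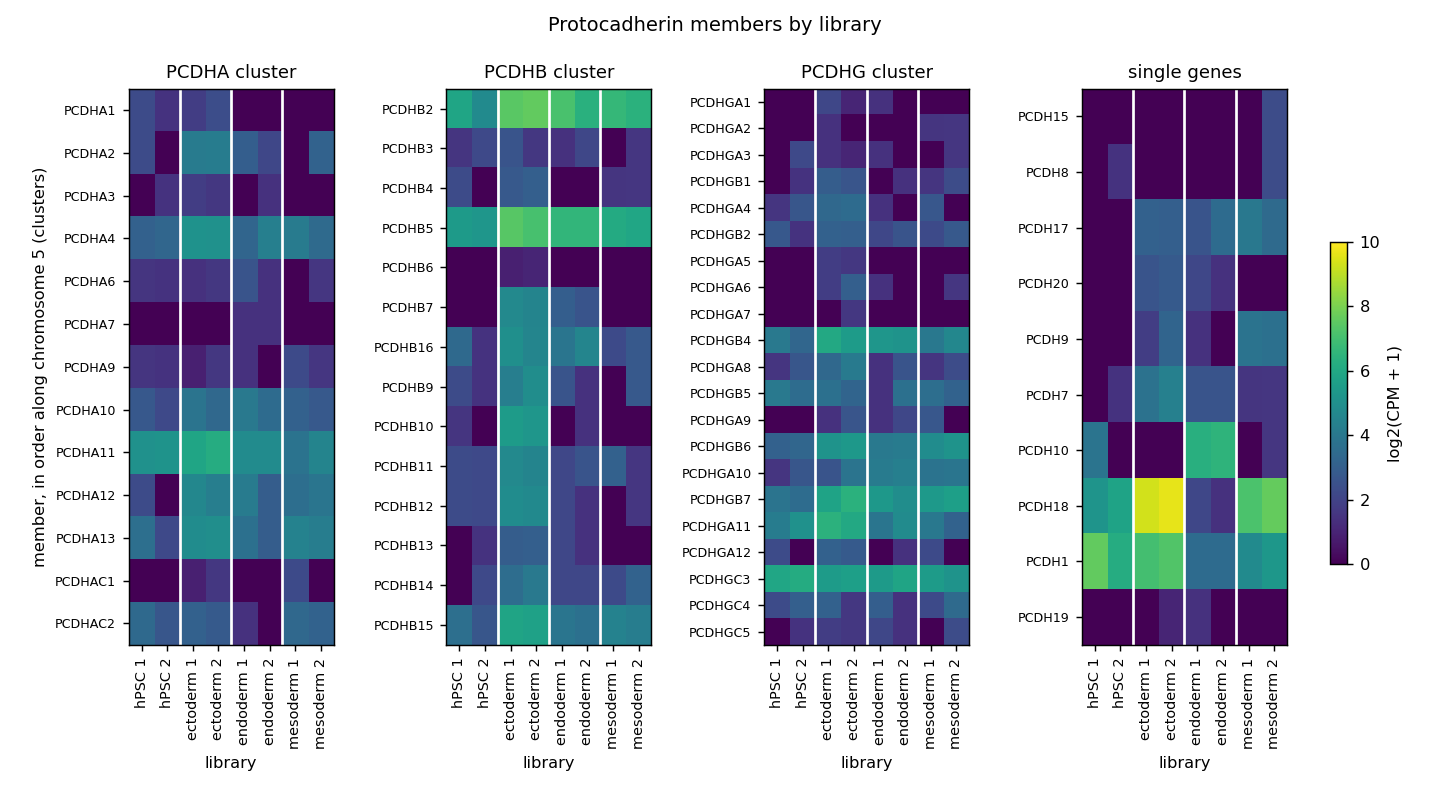
Level of each of the 58 members in each of the 8 libraries, as log2(CPM + 1) by colour, with clustered members in their order along chromosome 5 and white lines between the groups. PCDH18 in ectoderm has the brightest cells (628 and 801 CPM), and most PCDHB rows are brighter in the 2 ectoderm columns than in the others.

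Of the 58 members, 21 had enough reads to be tested among 10847 genes with edgeR's quasi-likelihood test and Benjamini-Hochberg adjustment at 0.05. In ectoderm 17 of the 21 were higher than in hPSC, against a background of 23.8% of all genes tested, and 2 were lower, against 24.8%. In endoderm 8 were higher, against 13.4% of all genes, and 2 lower, against 13.7%. In mesoderm 3 were higher, against 17.0%, and 3 lower, against 18.2%. Over the 4 groups 20 of the 21 differed, against 77.7% of all genes. The median log2 fold change of the tested members was 1.74 for ectoderm, 0.95 for endoderm and 0.15 for mesoderm, against -0.01, -0.13 and 0.01 for all genes tested. A member low in hPSC passed the read filter only through a layer in which it was high, so these counts describe the 21 members tested and not all 58. Of the 35 calls, 17 held without each of the 8 libraries in turn, 10 of 19 in ectoderm, 5 of 10 in endoderm and 2 of 6 in mesoderm.

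**Figure D2:**
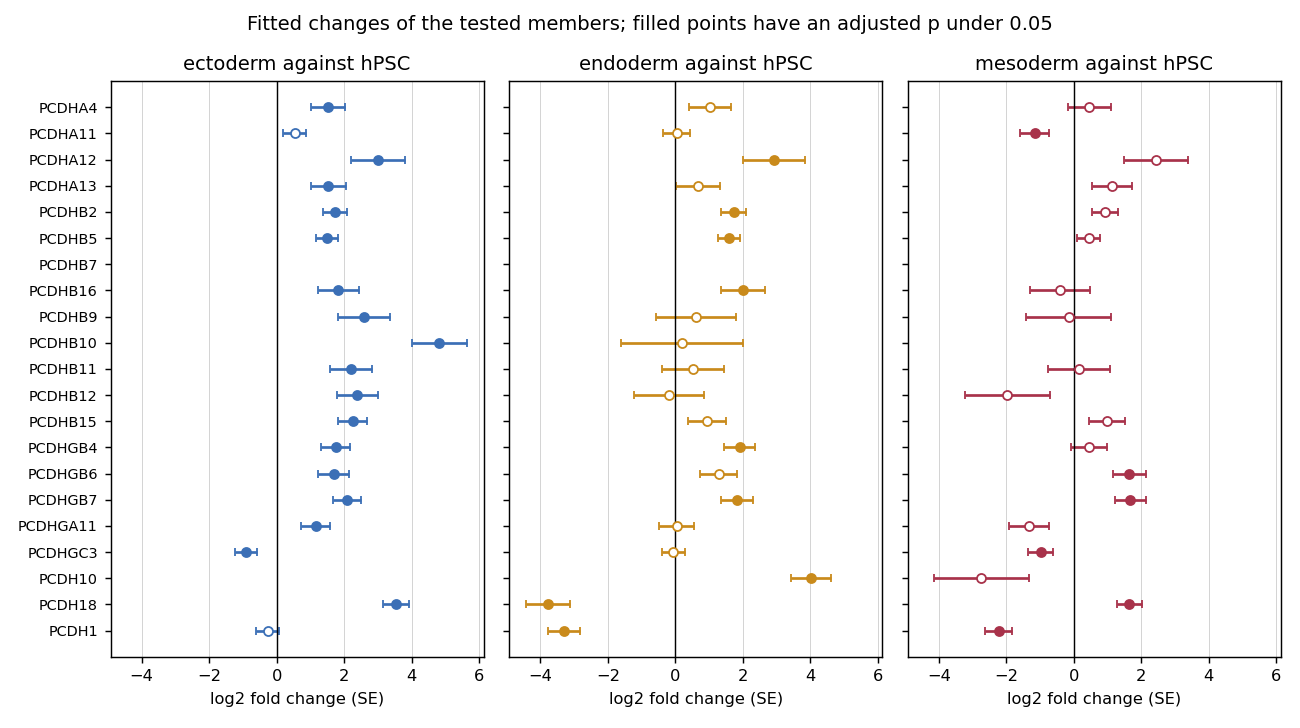
Fitted log2 fold change with its SE of each of the 21 tested members in each layer against hPSC, with filled points for an adjusted p under 0.05. Points are left out where a group had no read (PCDHB7 in all panels, PCDH10 in ectoderm, PCDHB10 in mesoderm). Nearly all ectoderm points lie right of 0, whereas in endoderm PCDH10 lies far right and PCDH18 and PCDH1 far left.

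The PCDHB cluster was the most read of the 3 in ectoderm and endoderm. Its summed level was 115 ± 36.5 CPM in hPSC (SD, n = 2), 583 ± 20.7 for ectoderm, 261 ± 38.8 for endoderm and 197 ± 11.8 for mesoderm. The sum rose in ectoderm by 1.94 ± 0.30 on the log2 scale (SE; edgeR adjusted p = 0.000126) and in endoderm by 1.54 ± 0.30 (edgeR adjusted p = 0.00149). In mesoderm the log2 fold change was 0.57 ± 0.30, which did not pass (edgeR adjusted p = 0.154), although both mesoderm libraries (205 and 189 CPM) lay above both hPSC libraries (141 and 89.0 CPM). With library totals in place of edgeR's TMM scaling, the mesoderm value was 0.78 and passed (edgeR adjusted p = 0.0499). All 9 tested PCDHB members rose in ectoderm and 4 of them in endoderm, against 23.8% and 13.4% of all genes tested. None was called in mesoderm, where 1 had an unadjusted p under 0.05. Apart from PCDHB2 and PCDHB5, these members were low in hPSC and passed the read filter only through a layer in which they were high. Their counts thus describe the 9 tested members only. In the table with sums in place of members, the backgrounds of genes called higher were 23.7%, 13.4% and 16.9% in ectoderm, endoderm and mesoderm.

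A pair of genes made up most of the cluster in every library. PCDHB2 (chr5:141094606-141098703) had 30 and 15 reads in hPSC, 206 and 185 for ectoderm, 81 and 47 for endoderm and 53 and 42 for mesoderm. PCDHB5 (chr5:141135190-141138615) had 22 and 21, 196 and 130, 56 and 56, and 36 and 30 reads in the same order. Both were higher in every layer library than in either hPSC library in CPM, with PCDHB2 at 42.2 ± 22.0 CPM in hPSC and 183 ± 11.9 in ectoderm, and PCDHB5 at 39.9 ± 3.54 and 150 ± 22.3. PCDHB2 rose by 1.72 ± 0.36 in ectoderm and 1.73 ± 0.37 in endoderm (edgeR adjusted p = 0.00123 and 0.00297), the latter lost without endoderm repeat 1 (adjusted p = 0.0566). PCDHB5 rose by 1.49 ± 0.32 and 1.60 ± 0.33 (edgeR adjusted p = 0.00137 and 0.00222), and both calls held without each library in turn. In mesoderm the values were 0.92 ± 0.38 and 0.45 ± 0.34, and neither passed.

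PCDHB10 and PCDHB7 were read almost only in some layers. PCDHB10 (chr5:141192308-141195644) had 1 and 0 reads in hPSC, 52 and 36 for ectoderm, 0 and 1 for endoderm and 0 and 0 for mesoderm. Its level pooled over repeats was 44.3-fold higher in ectoderm than in hPSC, with a 95% interval of 7.75 to 1769 for counting error only, and the fitted change was 4.81 ± 0.81 (edgeR adjusted p = 0.000312). PCDHB7 (chr5:141172644-141176383) had no read in hPSC or mesoderm, but 30 and 21 in the ectoderm libraries and 4 and 3 in those of endoderm. Against a floor of 3 reads over the hPSC group, PCDHB7 was at least 8.56-fold higher in ectoderm and at least 2.15-fold higher in endoderm (edgeR adjusted p = 0.000676 and 0.0252). The ectoderm calls of both genes held without each library in turn, with 7.59 for PCDHB10 without hPSC repeat 1, and the endoderm call of PCDHB7 was lost in 6 of the 8 such fits (adjusted p up to 0.117).

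In each of the other 6 PCDHB members with at least 20 reads, both ectoderm libraries lay above both hPSC libraries in CPM. The share of all genes that did so was not counted. PCDHB15 had 6 and 3 reads in hPSC, 66 and 50 for ectoderm, 8 and 7 for endoderm and 11 and 9 for mesoderm, and rose in ectoderm by 2.25 ± 0.43 (edgeR adjusted p = 0.000685). PCDHB12 had 2 and 2, 33 and 25, 2 and 1, and 0 and 1 reads in the same order, and PCDHB9 had 2 and 1, 22 and 28, 3 and 1, and 0 and 3. In both, the ectoderm libraries lay above all the others and the other groups were within a few reads of each other. PCDHB11 had 2 and 2, 30 and 21, 2 and 3, and 4 and 1 reads. PCDHB16 had 5 and 1, 36 and 22, 8 and 13, and 2 and 3, and PCDHB14, which was not tested, had 0 and 2, 13 and 15, 2 and 2, and 2 and 4. PCDHB12, PCDHB9, PCDHB11 and PCDHB16 rose in ectoderm by 2.39, 2.59, 2.21 and 1.83 on the log2 scale. Each of these 4 ectoderm calls was lost without 1 or 2 of the libraries: without ectoderm repeat 1 for PCDHB12, PCDHB11 and PCDHB16 (adjusted p = 0.0524, 0.0764 and 0.107), without ectoderm repeat 2 for PCDHB9 (0.111), without hPSC repeat 1 for PCDHB11 (0.0545) and without hPSC repeat 2 for PCDHB16 (0.112). Without hPSC repeat 1 the PCDHB16 value was 3.21 in ectoderm and 3.40 in endoderm. PCDHB16 also rose in endoderm, by 2.01 ± 0.66 (edgeR adjusted p = 0.0351), a call lost in 7 of the 8 such fits and with library totals (adjusted p = 0.0868). The 4 PCDHB members under 20 reads had from 2 to 19 reads, 54 in all.

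Nearly all PCDHB reads, 1842 of 1889 (97.5%, 95% exact binomial interval 96.7 to 98.2%), came from 1-exon transcripts, as the gene structure of the cluster has it. The spread of reads over the genes was measured by an effective number of first exons, the number of equally used exons that would give the same chance that 2 reads share an exon. For PCDHB it was 3.78 and 3.8 in hPSC, 5.40 and 5.25 for ectoderm, 2.93 and 3.41 for endoderm and 2.84 and 3.32 for mesoderm. The 2 ectoderm libraries were the highest of all 8. Permuting the libraries over the groups in all ways, with the F statistic, gave an exact permutation p = 0.0381, and 0.0825 after Benjamini-Hochberg adjustment over the 13 share and number values tested in this way. The smallest p this design allows is 0.00952. At that p a single value would be at 0.124 after adjustment over 13, and at least 3 values must share it to pass 0.05, so the adjusted test could hardly pass. The test of choice among the 9 PCDHB members, with the cluster as the gene and its members as units in edgeR's diffSpliceDGE, gave adjusted p = 0.0669 for ectoderm, 0.463 for endoderm and 0.611 for mesoderm.

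**Figure D3:**
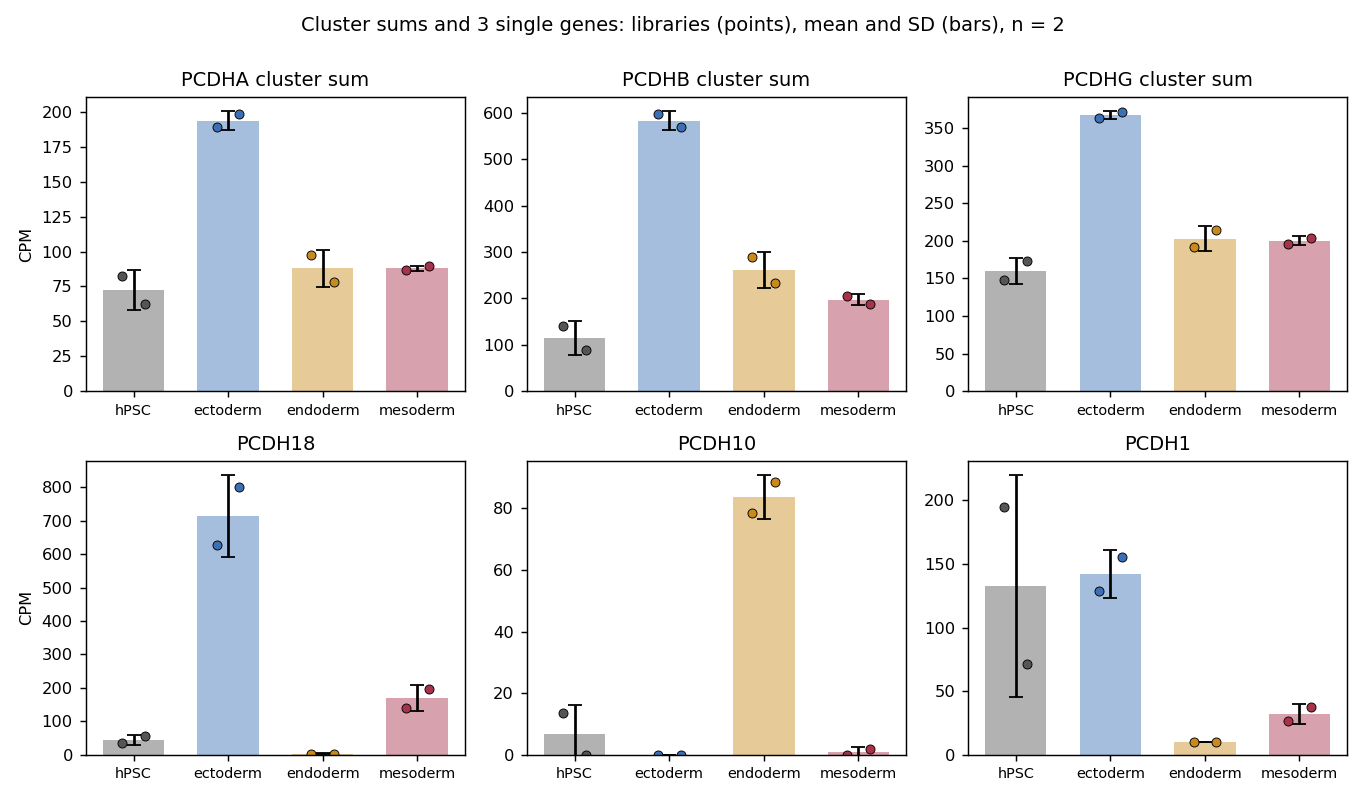
Level in CPM of the 3 cluster sums (upper row) and of PCDH18, PCDH10 and PCDH1 (lower row) in the 4 groups, with a point per library, bars for the mean and error bars for the SD (n = 2). All 3 cluster sums are highest in ectoderm, PCDH10 is read mainly in endoderm (78.6 and 88.7 CPM), and the 2 hPSC libraries lie far apart for PCDH1 (194 and 71.2 CPM).

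The PCDHA cluster was the least read of the 3. Its sum was 72.5 ± 14.5 CPM in hPSC, 194 ± 6.84 for ectoderm, 87.9 ± 13.3 for endoderm and 88.0 ± 1.91 for mesoderm (SD, n = 2). It rose in ectoderm by 1.00 ± 0.29 on the log2 scale (edgeR adjusted p = 0.0105), which was lost without ectoderm repeat 1 (adjusted p = 0.0533) and when a trend on transcript length was removed from each library (0.24, adjusted p = 0.521). Values of 0.62 ± 0.31 in endoderm and 0.06 ± 0.31 in mesoderm did not pass. Of the 4 PCDHA members tested, 3 rose in ectoderm and 1 in endoderm, against 23.8% and 13.4% of all genes. In mesoderm 1 fell, against 18.2% of all genes. The members that rose were low in hPSC and passed the read filter only through layers in which they were high. With 4 members these counts are a description only.

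PCDHA11 had the most reads of the cluster by name in all groups but mesoderm, where PCDHA13 had 20 and PCDHA11 18. It had 17 and 19 reads in hPSC, 68 and 70 for ectoderm, 16 and 16 for endoderm and 7 and 11 for mesoderm, which is 33.3 ± 0.76 CPM in hPSC and 17.5 ± 6.12 in mesoderm. It was the tested PCDHA member without a call in ectoderm (0.53 ± 0.34, edgeR adjusted p = 0.215) and fell in mesoderm by 1.16 on the log2 scale (SE 0.44, edgeR adjusted p = 0.0499). That mesoderm call was lost in 7 of 8 fits that left out a library, with values from -1.48 to -0.77, and with library totals (adjusted p = 0.104). When transcripts were assigned by the variable exon in which they start, PCDHA11 had 20, 17, 16 and 15 reads in the endoderm and mesoderm libraries, the mesoderm value was -0.39 (edgeR adjusted p = 0.456), and the ectoderm value of 0.89 passed (edgeR adjusted p = 0.0336).

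PCDHA12 had the largest fitted rise in the cluster. It had 2 and 0 reads in hPSC, 28 and 18 for ectoderm, 10 and 4 for endoderm and 6 and 7 for mesoderm, so that every layer library lay above both hPSC libraries in CPM. The pooled level was 11.6-fold higher in ectoderm (95% interval 3.03 to 98.5) and 6.46-fold higher in endoderm (1.48 to 58.6), for counting error only, with edgeR adjusted p = 0.00683 and 0.0288. The mesoderm value of 2.44 ± 0.96 did not pass (edgeR adjusted p = 0.0586). Without hPSC repeat 1, in which both hPSC reads lie, the fitted changes were 6.66 and 6.60. The endoderm call was lost without hPSC repeat 2, ectoderm repeat 1 or endoderm repeat 1 (adjusted p = 0.0963, 0.0531 and 0.254) and with library totals (0.0624).

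PCDHA4 had 4 and 5 reads in hPSC, 39 and 31 for ectoderm, 5 and 11 for endoderm and 9 and 5 for mesoderm. PCDHA13 had 6 and 2, 33 and 29, 7 and 4, and 11 and 9 in the same order. Both had their highest levels in the ectoderm libraries and rose there by 1.53 ± 0.51 (edgeR adjusted p = 0.0219 and 0.0223), and both calls were lost without ectoderm repeat 1 or 2, with adjusted p from 0.0564 to 0.0737. PCDHA4 also lost its call without hPSC repeat 1 (0.0991) and PCDHA13 without hPSC repeat 2 (0.128), while without hPSC repeat 1 PCDHA13 was at 2.36. With the length trend removed both calls were lost, at 0.69 (adjusted p = 0.333) for PCDHA4 and 0.54 (0.451) for PCDHA13. Among members too rare to test by name, PCDHA2 had 2 and 0 reads in hPSC, 20 and 17 for ectoderm, 4 and 2 for endoderm and 0 and 4 for mesoderm. PCDHA10 had 3 and 2, 16 and 9, 9 and 6, and 4 and 3, and PCDHAC2 had 5 and 3, 9 and 6, 1 and 0, and 5 and 4. PCDHA2 was higher in both ectoderm libraries than in either hPSC library in CPM. By start it had 59 reads in place of 49, was tested and rose in ectoderm by 2.85 ± 0.82 (edgeR adjusted p = 0.00989), while PCDHA13 was no longer tested. PCDHAC2 had its lowest levels in endoderm. The other 6 PCDHA members had from 2 to 11 reads, 44 in all.

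The name that the assembly gives to a PCDHA transcript was not always that of its first exon. In PCDHA 122 reads of 11 transcripts, and in PCDHG 26 reads of 1 transcript, were named for a gene other than the one whose variable exon they start in, or start in none. No PCDHB transcript was affected. PCDHA13 accounts for most of this: 95 of its 101 reads (94.1%, 95% exact binomial interval 87.5 to 97.8%) start elsewhere, and only 6 start in its own variable exon. All 95 have the last intron of the constant part spliced out. Of them, 57 belong to 1 transcript (chr5:140868957-141012302, 11270 nt) whose first exon of 8883 nt starts at PCDHA11 and runs to the splice donor of PCDHA12. This transcript had no read among 78 PCDHA reads of hPSC, and took 9.40% of the PCDHA reads in ectoderm, 4.85% in endoderm and 14.3% in mesoderm. By its start it counts as PCDHA11, which then has 281 reads in place of 224, and by its splice donor as PCDHA12, which then has 132 in place of 75. PCDHAC1 had 5 reads by name and 16 by start.

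**Figure D4:**
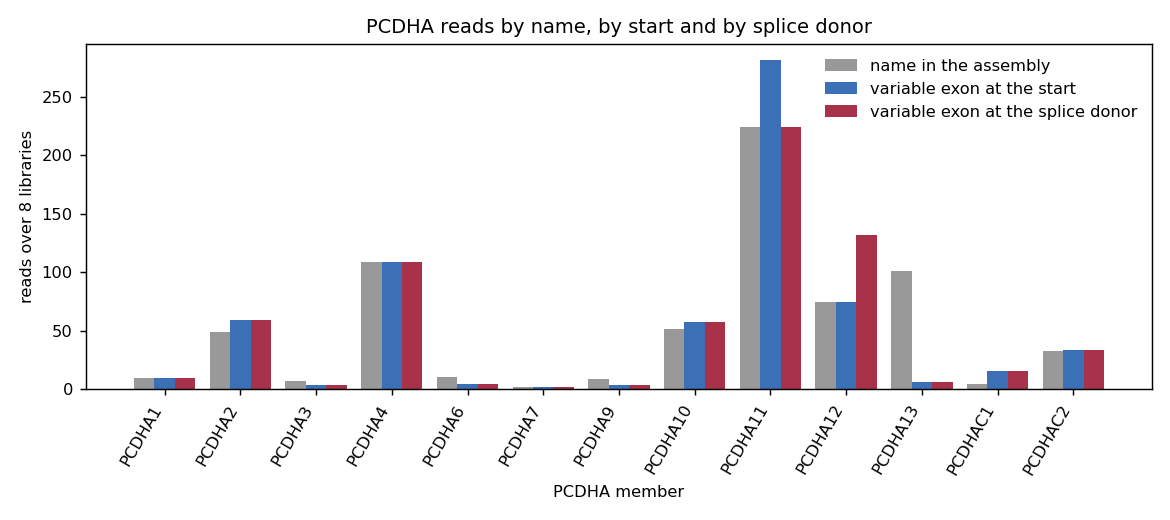
Reads over the 8 libraries of each PCDHA member under 3 assignments: the name in the assembly, the variable exon at the start of the transcript, and the variable exon whose splice donor ends the first exon. PCDHA13 has 101 reads by name and 6 by start or donor, and of the 95 others 57 move to PCDHA11 by start and to PCDHA12 by donor, 12 to PCDHA10, 11 to PCDHAC1, 8 to PCDHAC2 and 7 to PCDHA2.

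Of 687 PCDHA reads, 504 (73.4%, 95% exact binomial interval 69.9 to 76.6%) were assigned to transcripts that run into the constant exons. Another 81 were assigned to 1-exon transcripts of a variable exon, 78 to transcripts spliced elsewhere and 24 to transcripts with no variable exon. The share that reached the constant exons was 69.8% and 62.9% in hPSC, 73.1% and 76.0% for ectoderm, 77.2% and 73.9% for endoderm and 63.0% and 80.0% for mesoderm, with overlapping groups (exact permutation p = 0.533). Among the 504, 336 (66.7%) kept the last intron, which ends the protein in another cytoplasmic tail, and 168 (33.3%) had it spliced out. The kept form was 67.3% in hPSC, 66.3% for ectoderm, 74.4% for endoderm and 58.5% for mesoderm, pooled over repeats and not tested. Of the 109 reads that start in PCDHA4, 44 (40.4%) were spliced elsewhere than to the constant exons.

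The test of first-exon choice in PCDHA changed with how reads were assigned. Over the 4 tested members, diffSpliceDGE gave adjusted p = 0.232 for ectoderm, 0.223 for endoderm and 0.0372 for mesoderm, the last against a background of 7.23% of 2641 genes with a differing choice of transcript or first exon. The mesoderm value was 0.238 with first exons taken by start and 0.0131 by splice donor, and left the threshold in 7 of 8 fits without a library. By splice donor the ectoderm value was 0.0478. The share of PCDHA11 by name was 39.5% and 54.3% in hPSC, 30.5% and 36.5% for ectoderm, 28.1% and 34.8% for endoderm and 15.2% and 24.4% for mesoderm. By start the mesoderm shares were 39.0% and 35.7%, beside 36.4% and 38.6% in endoderm and 41.1% and 46.3% in ectoderm. The effective number of PCDHA first exons by name was 5.22 and 3.20 in hPSC, 5.79 and 5.04 for ectoderm, 6.62 and 5.10 for endoderm and 7.14 and 7.23 for mesoderm (exact permutation p = 0.133). By start the p was 0.648.

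The C-type exons of PCDHA rested on few reads. By name they took 11.6% (5 of 43 reads) and 8.57% (3 of 35) in hPSC, 4.48% and 4.17% for ectoderm, 1.75% and 0% for endoderm and 15.2% and 8.89% for mesoderm (exact permutation p = 0.0381, adjusted p = 0.0825). By start the shares were 23.8% and 12.5%, 5.94% and 5.85%, 1.82% and 2.27%, and 12.2% and 11.9% (exact permutation p = 0.00952, the smallest the design allows; adjusted p = 0.0619). Under both assignments the ectoderm and endoderm libraries lay below the hPSC and mesoderm libraries, and neither adjusted p passed the threshold.

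The PCDHG cluster had the largest number of members with reads. Its level was 160 ± 17.2 CPM in hPSC, 368 ± 4.98 for ectoderm, 203 ± 16.7 for endoderm and 200 ± 6.09 for mesoderm (SD, n = 2). The ectoderm sum rose by 0.75 ± 0.30 on the log2 scale (edgeR adjusted p = 0.0457). It was lost without hPSC repeat 1 (0.49, adjusted p = 0.145), ectoderm repeat 1 (0.77, 0.152) or ectoderm repeat 2 (0.91, 0.0690), and was 0.25 with the length trend removed (adjusted p = 0.521). Values of 0.66 ± 0.30 in endoderm and 0.07 ± 0.30 in mesoderm did not pass, and the endoderm value was 0.96 and passed without hPSC repeat 2 (adjusted p = 0.0106). Over the 4 groups the sum gave adjusted p = 0.0522.

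The 3 tested B-type members of PCDHG rose in ectoderm, against 23.8% of all genes tested. All 3 passed the read filter only through layers in which they were high. PCDHGB7 (chr5:141417677-141512975) had 7 and 6 reads in hPSC, 65 and 81 for ectoderm, 23 and 17 for endoderm and 22 and 25 for mesoderm. Every layer library lay above both hPSC libraries, and PCDHGB7 was the member that rose in all 3 layers, by 2.08 ± 0.42, 1.83 ± 0.47 and 1.67 ± 0.46 (edgeR adjusted p = 0.000984, 0.00885 and 0.0105). The endoderm call was lost without endoderm repeat 1 (adjusted p = 0.0622) and the mesoderm call without mesoderm repeat 2 (0.0616). PCDHGB4 had 8 and 5, 76 and 42, 22 and 20, and 8 and 12 reads in the same order, and rose in ectoderm by 1.74 ± 0.43 and in endoderm by 1.90 ± 0.47 (edgeR adjusted p = 0.00396 and 0.00703). PCDHGB6 had 4 and 5, 40 and 38, 9 and 10, and 15 and 17 reads, and rose in ectoderm by 1.69 ± 0.45 and in mesoderm by 1.64 ± 0.49 (edgeR adjusted p = 0.00640 and 0.0176). Its mesoderm call was lost without hPSC repeat 1 or mesoderm repeat 2 (adjusted p = 0.0786 and 0.0789), and its ectoderm call with the length trend removed (1.20, adjusted p = 0.0513). PCDHGB5, not tested, had 8 and 6, 14 and 8, 1 and 7, and 6 and 4 reads, and PCDHGB2 had 3 and 1, 9 and 7, 2 and 3, and 2 and 3.

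Among A-type members only PCDHGA11 was tested. It had 9 and 18 reads in hPSC, 101 and 63 for ectoderm, 8 and 16 for endoderm and 8 and 4 for mesoderm. It rose in ectoderm by 1.16 ± 0.43 (edgeR adjusted p = 0.0341), with 0.63 without hPSC repeat 1 and 1.92 without hPSC repeat 2. The call was lost without hPSC repeat 1 (adjusted p = 0.193) or ectoderm repeat 1 (0.132), and with the length trend removed (0.67, adjusted p = 0.248). Its mesoderm value of -1.34 ± 0.59 did not pass (edgeR adjusted p = 0.0894). PCDHGA10 had 1 and 3, 6 and 13, 10 and 11, and 7 and 7 reads, highest in CPM in endoderm, and PCDHGA4 had 1 and 3, 11 and 10, 1 and 0, and 3 and 0. PCDHGA8 had 1 and 3, 11 and 16, 1 and 3, and 1 and 2 reads by name, of which 26 of 38 belong to a transcript that starts in PCDHGB4. PCDHGA12 had 2 and 0, 9 and 6, 0 and 1, and 2 and 0. The 9 PCDHG members under 20 reads had from 2 to 18 reads, 78 in all.

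PCDHGC3 was the most read PCDHG member in hPSC and the only one called lower. It had 31 and 39 reads in hPSC, 52 and 48 for ectoderm, 25 and 33 for endoderm and 23 and 17 for mesoderm, which is 64.5 ± 6.86, 46.8 ± 3.95, 49.5 ± 9.62 and 38.5 ± 6.76 CPM (SD, n = 2). Every layer library was below both hPSC libraries in CPM. The fitted change was -0.90 ± 0.33 in ectoderm and -0.98 ± 0.36 in mesoderm (edgeR adjusted p = 0.0331 and 0.0447), and -0.06 ± 0.35 in endoderm. Both calls were lost in 7 of 8 fits that left out a library (adjusted p up to 0.257 and 0.271), and with library totals the values were -0.47 and -0.74 (adjusted p = 0.214 and 0.0991). Of its 268 reads, 251 (93.7%) belong to 1 transcript. PCDHGC4 had 2 and 4, 9 and 2, 4 and 1, and 2 and 5 reads, and PCDHGC5 had 11 in all.

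The share of C-type exons in PCDHG reads was highest in hPSC and lowest in ectoderm. It was 42.9% and 45.4% in hPSC, 14.9% and 14.5% for ectoderm, 27.7% and 27.8% for endoderm and 24.0% and 23.3% for mesoderm, and no 2 groups overlapped. The means were 44.1 ± 1.77% in hPSC, 14.7 ± 0.28% for ectoderm, 27.7 ± 0.07% for endoderm and 23.7 ± 0.52% for mesoderm (SD, n = 2). Pooled over repeats they rest on 174, 789, 238 and 207 PCDHG reads in the same order. An SD of 2 libraries can fall below counting error, and the small gap between endoderm and mesoderm was not tested by itself. The exact permutation p was 0.00952, the smallest the design allows, and 0.0825 after adjustment over 13 values. PCDHGC3 alone took 40.3% and 40.2% of the PCDHG reads in hPSC, 12.1% and 13.4% for ectoderm, 22.3% and 26.2% for endoderm and 22.1% and 16.5% for mesoderm. These shares do not depend on the scaling between libraries, and they were the same under all 3 assignments of first exons.

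The B-type exons stood highest in the layers. PCDHGB exons took 39.0% and 24.7% of PCDHG reads in hPSC, 49.3% and 50.4% for ectoderm, 50.9% and 46.0% for endoderm and 51.9% and 61.2% for mesoderm (exact permutation p = 0.0286, adjusted p = 0.0825), and every layer library was above both hPSC libraries. PCDHGA exons took 18.2% and 29.9%, 35.8% and 35.1%, 21.4% and 26.2%, and 24.0% and 15.5%, with the ectoderm libraries highest (exact permutation p = 0.190). The effective number of PCDHG first exons was 4.97 and 4.85 in hPSC, 7.40 and 7.80 for ectoderm, 6.90 and 7.15 for endoderm and 7.76 and 7.65 for mesoderm (exact permutation p = 0.0286, adjusted p = 0.0825). Both hPSC libraries were the lowest.

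The choice among the 5 tested PCDHG members differed from hPSC in all 3 layers by diffSpliceDGE, with adjusted p = 0.00103 for ectoderm, 0.0414 for endoderm and 0.00122 for mesoderm. The backgrounds of 2641 genes were 6.02%, 5.07% and 7.23%. PCDHGB4, PCDHGB6 and PCDHGB7 were low in hPSC and passed the read filter only through layers in which they were high. The test thus describes the 5 tested members and not the whole cluster. The same filter applied to the tests of choice in PCDHA and PCDHB. Relative to the tested members of the cluster, PCDHGC3 fell in ectoderm by 1.67 on the log2 scale (diffSpliceDGE adjusted p = 0.00738). It was the only member that passed singly in any layer. At a minimum count of 3 the endoderm and mesoderm calls of choice were lost, as given below. The endoderm call was lost by start (0.0607), by splice donor (0.0607) and in 6 of 8 fits without a library. The ectoderm call was lost without ectoderm repeat 1 (0.0674) or ectoderm repeat 2 (0.0753), and the mesoderm call without mesoderm repeat 2 (0.150).

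**Figure D5:**
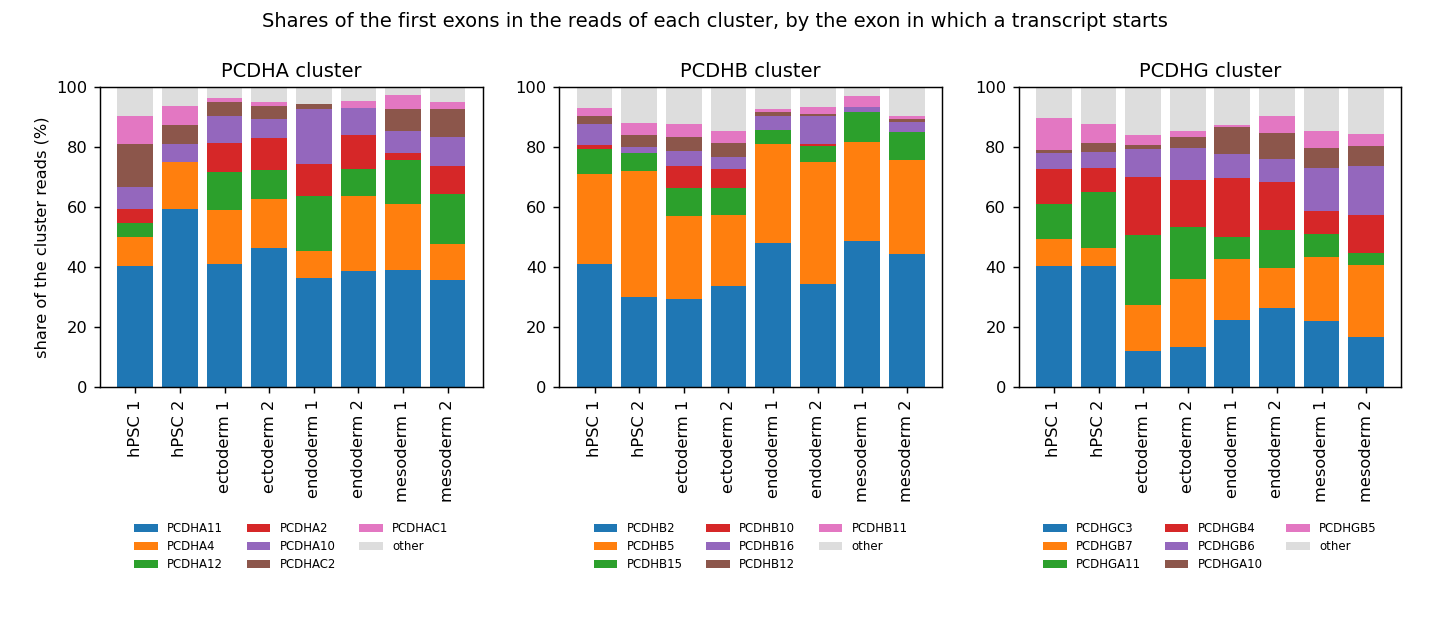
Share of each first exon in the reads of PCDHA, PCDHB and PCDHG in each library, in percent, with the 7 most read members of each cluster in colour, the rest in grey, and transcripts assigned by the exon in which they start. In PCDHG the lowest segment, PCDHGC3, is tallest in the 2 hPSC libraries (40.3% and 40.2%) and shortest in the 2 ectoderm libraries (12.1% and 13.4%).

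Of the 1408 PCDHG reads, 1246 (88.5%, 95% exact binomial interval 86.7 to 90.1%) were assigned to transcripts that reach the constant exons. Another 147 were assigned to 1-exon transcripts of a variable exon and 15 to a transcript spliced elsewhere. The share that reached the constant exons was 87.0% and 94.8% in hPSC, 84.4% and 84.1% for ectoderm, 95.5% and 94.4% for endoderm and 94.2% and 95.1% for mesoderm. The ectoderm libraries were the lowest (exact permutation p = 0.0762, adjusted p = 0.110).

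Among all protocadherin reads, PCDHB took 22.9% and 19.6% in hPSC, 30.9% and 26.6% for ectoderm, 42.0% and 36.2% for endoderm and 29.9% and 25.1% for mesoderm (exact permutation p = 0.0286, adjusted p = 0.0825). The single genes took 39.5% and 28.6%, 40.6% and 46.7%, 15.9% and 18.3%, and 28.8% and 35.7% (exact permutation p = 0.0476, adjusted p = 0.0884). Endoderm thus had the highest share of PCDHB and the lowest share of single genes, while the shares of PCDHA and PCDHG gave exact permutation p = 0.0762 and 0.210.

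PCDH18, a single protocadherin on chromosome 4 (chr4:137518918-137532494, minus strand), was the most read member. It had 18 and 31 reads in hPSC, 742 and 775 for ectoderm, 2 and 1 for endoderm and 75 and 99 for mesoderm. The groups did not overlap, at 44.9 ± 14.5 CPM in hPSC, 715 ± 122 for ectoderm, 2.56 ± 1.21 for endoderm and 169 ± 39.1 for mesoderm (SD, n = 2). It rose in ectoderm by 3.53 ± 0.38 and in mesoderm by 1.64 ± 0.38 (edgeR adjusted p = 6.52e-06 and 0.00353). It fell in endoderm, where the pooled level was 17.7-fold lower (95% interval 5.71 to 88.8 for counting error only, edgeR adjusted p = 0.000642). All 3 calls held without each library in turn. Its 3 transcripts took 71.6%, 22.8% and 5.57% of the reads, and the main one took 71.6% in ectoderm, 70.7% in mesoderm and 73.5% in hPSC.

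PCDH10 (chr4:133149281-133194700) was read mainly in endoderm. It had 7 and 0 reads in hPSC, 0 and 0 for ectoderm, 46 and 52 for endoderm and 0 and 1 for mesoderm. The endoderm libraries stood apart from all the others, at 83.6 ± 7.18 CPM, and the rise was 4.01 ± 0.59 (edgeR adjusted p = 0.000209). Without hPSC repeat 1, which holds all hPSC reads, the fitted rise was 9.40. In ectoderm PCDH10 was at least 4.64-fold lower than in hPSC against a floor of 3 reads over the group (edgeR adjusted p = 0.0106). That call rests on hPSC repeat 1, because without it neither group has a read, and it was lost without either ectoderm library (adjusted p = 0.0630 and 0.0557). Of its 106 reads, 100 (94.3%) belong to its 5-exon transcript of 8523 nt.

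PCDH1 (chr5:141853090-141878870, minus strand), an adhesion protein known from epithelia that lies outside the clusters, had 101 and 40 reads in hPSC, 152 and 150 for ectoderm, 6 and 6 for endoderm and 14 and 19 for mesoderm. It fell in endoderm by 3.29 on the log2 scale (SE 0.48) and in mesoderm by 2.22 (SE 0.40; edgeR adjusted p = 0.000134 and 0.000643). Both calls held without each library in turn. Ectoderm did not differ from hPSC beyond the spread, with -0.27 ± 0.34 and ectoderm libraries between the 2 hPSC libraries in CPM. Its main transcript held 388 of 488 reads (79.5%).

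The remaining single genes were too rare to test, and PCDH17, PCDH9 and PCDH7 are best known from the developing brain. PCDH17 had no read in hPSC, 9 and 7 for ectoderm, 3 and 6 for endoderm and 8 and 5 for mesoderm, which is at least 2.68-fold, 2.77-fold and 4.53-fold higher than the hPSC floor of 3 reads. PCDH9 had none in hPSC, 3 and 8 for ectoderm, 1 and 0 for endoderm and 7 and 6 for mesoderm, where it was at least 4.53-fold higher. PCDH7 had 0 and 1, 15 and 19, 3 and 3, and 1 and 1 reads, and its pooled ectoderm level was 17.1-fold that of hPSC (95% interval 2.87 to 696, counting error only). In all 3 genes both ectoderm libraries lay above both hPSC libraries, and the share of all genes that did so was not counted. PCDH20 had 12 reads in ectoderm, 3 in endoderm and none elsewhere, and PCDH8, PCDH15 and PCDH19 had from 2 to 3 reads in all.

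A pair of lists of other genes of the pathway were read beside the members. The chromatin factors of the clusters include CTCF, which binds the promoters and their enhancers, cohesin, which brings them together by loop extrusion, and enzymes of DNA and histone methylation. Of 22 such genes 21 were tested: 11 were higher and 2 lower in ectoderm, 1 higher and 5 lower in endoderm, and 7 higher and 4 lower in mesoderm. CTCF had 24 and 12 reads in hPSC and 89 and 52 in ectoderm and was not called in any layer (0.55 ± 0.37 in ectoderm). Of cohesin, RAD21 rose in ectoderm by 1.98 ± 0.29 and STAG2 by 3.09 ± 0.47. NIPBL, the cohesin loader, had 2 and 1 reads in hPSC and rose in ectoderm by 5.21 ± 0.53 and in mesoderm by 3.46 ± 0.64. SMCHD1, a repressor of the clusters, had 2 and 0 reads in hPSC, 68 and 82 for ectoderm, 0 and 2 for endoderm and 15 and 11 for mesoderm. The DNA methyltransferase DNMT3B fell in all 3 layers, with log2 fold changes of -2.21, -2.75 and -3.85. Transcripts averaged the most nt a read in ectoderm, as given above, and neither this list nor the next was read with the length trend removed.

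Binding partners and effectors of protocadherins number 24, all tested. In ectoderm 9 were higher and 1 lower, in endoderm 6 and 6, and in mesoderm 6 and 2. FYN and PTK2, kinases bound by the constant tails, rose in ectoderm by 1.69 ± 0.38 and 1.34 ± 0.35. Of the WAVE actin complex, NCKAP1, WASF1 and CYFIP1 rose there by 1.90 ± 0.36, 1.24 ± 0.37 and 0.74 ± 0.29. BRK1 of the same complex was lower in ectoderm (log2 fold change -1.46), and ABI1, ABI2, CYFIP2 and WASF2 were not called. In endoderm FYN (-3.84, with 1 and 0 reads) and NCKAP1 (-1.58) were lower, CYFIP1 was higher (0.99 ± 0.29), and PTK2 and WASF1 were not called. ADAM10, the protease that sheds protocadherin ectodomains, rose in ectoderm by 3.15 ± 0.37 and in mesoderm by 1.93 ± 0.37. In endoderm N-cadherin (CDH2) rose by 4.28 ± 0.35 and E-cadherin (CDH1) fell by 1.82 on the log2 scale. The backgrounds of all genes given above for the members hold for these counts too.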

How the data were processed

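The authors deposited whole raw read counts per assembled transcript for the 8 libraries. Both endoderm columns were labelled expected counts only here, and as the authors deposited them they hold whole raw counts that needed no rounding. Assembly and alignment used StringTie and minimap2 on GRCh38, per the submitters' processing notes. The counter, the annotation release, the use of strand and the treatment of reads shared by similar copies are not given in the sources used here, so reads of near-identical cluster members could be split between them. Coordinates are from the deposited assembly per the file headers, and 41 of 41 reference-matched spliced member transcripts have the same introns in GENCODE 29.

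Transcripts without a gene name (10, with 94 reads) were left out. The test was that of edgeR 4.0.16 (R 4.3.3): filterByExpr at a minimum count of 10, TMM factors (0.726 to 1.27), 1 quasi-likelihood fit over all 8 libraries and Benjamini-Hochberg adjustment over 10847 genes, two-sided. First-exon choice used diffSpliceDGE. Shares were tested exactly in Python 3.11.15 with SciPy 1.17.1, and DESeq2 1.42.0 was an alternative. Exact binomial intervals are Clopper-Pearson, and intervals and floors (3 counts) cover counting error only. The labels do not say that repeats are separate cultures, so p-values measure only the spread between these libraries. Whether repeat numbers pair the libraries is not given, and the main fit does not pair them (correlation of repeat differences between groups -0.03 to 0.15). A fit with the repeat number as a block is given below. In simulated data for ectoderm, endoderm and mesoderm, 75%, 65% and 75% of 200 genes changed 4-fold were recovered (9327, 9382 and 9414 genes tested), and 6.25%, 7.8% and 10.7% of calls were false.

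Members and lists were chosen with earlier results of these data known. The text names every member with at least 20 reads and gives the 23 others as ranges and counts. From the lists of other genes, counts called are given with values for some called genes, which were chosen, with CTCF, after their values were seen.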

Additional observations from a re-analysis of the deposited data

Results flagged for a closer look

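In 4 of the 21 tested members both libraries of 1 layer lay above both hPSC libraries in CPM and both libraries of another layer below them. The difference between the layers was not tested for any of them beyond the test over the 4 groups. The share of all tested genes with such a pattern was not counted, so the 4 are a description only. PCDH18 had a log2 fold change of 3.53 in ectoderm, 1.64 in mesoderm and -3.76 in endoderm. PCDHA11 had 0.53 in ectoderm and -1.16 in mesoderm, and by the start of its transcripts the mesoderm value was -0.39. PCDHB12 had 2.39 in ectoderm, -0.19 in endoderm and -1.97 in mesoderm, where the latter layers rest on 3 reads and 1 read. PCDHGA11 had 1.16 in ectoderm and -1.34 in mesoderm. Groups of 2 libraries were too small for a check for outlying samples.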

How the results depend on the processing

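With 2 repeats a group, each call rests on a spread shared over the groups. DESeq2's Wald and likelihood ratio tests called 8, 6 and 3 of the 21 tested members in ectoderm, endoderm and mesoderm and 13 over the 4 groups, where edgeR called 19, 10, 6 and 20. Of all 10847 genes tested, DESeq2 called 3356, 1836 and 2315 in the 3 layers, where edgeR called 5275, 2943 and 3815. The excess of members over all genes in ectoderm was thus far smaller with DESeq2. The DESeq2 value for the PCDHG sum in ectoderm was 0.80 (adjusted p = 0.0593). With library totals the PCDHB sum in mesoderm was 0.78. With a trend on transcript length removed, a setting chosen after seeing the data, as were library totals and both assignments by first exon, the PCDHA and PCDHG sums were 0.24 and 0.25 in ectoderm and turned to -0.31 and -0.18 in mesoderm. With the repeat number as a block, the PCDHG sum in ectoderm was 0.77 (adjusted p = 0.0539), and choice gave 0.0602 for PCDHA in mesoderm and 0.0884 for PCDHG in endoderm. The block changed no other call of a sum or of choice, and 33 of 35 member calls held. With the length trend removed 4 of 35 member calls were lost (PCDHA4, PCDHA13, PCDHGB6 and PCDHGA11 in ectoderm). With reference-matched transcripts 3 of 32 were lost: PCDHGC3 in ectoderm (-0.73, adjusted p = 0.0946) and mesoderm (-0.89, 0.0795), and PCDHA11 in mesoderm (-0.86, 0.174). Of 35, library totals lost 5, DESeq2 size factors 2, and a minimum count of 3 or no filter 3 each.

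For first-exon choice the adjusted p was 0.0713 for PCDHA in mesoderm with reference-matched transcripts. At a minimum count of 3 it was 0.282 for PCDHA in mesoderm, and 0.186 and 0.0835 for PCDHG in endoderm and mesoderm. By start it was 0.238 for PCDHA in mesoderm and 0.0607 for PCDHG in endoderm, and by splice donor 0.0478 for PCDHA in ectoderm and 0.0607 for PCDHG in endoderm. The causes were not tested.

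Leaving out each library in turn gave 12 to 20 members called in ectoderm, 5 to 10 in endoderm and 2 to 8 in mesoderm. The sums ranged from 1.02 to 1.13 for PCDHA in ectoderm, and for PCDHG from 0.49 to 1.11 in ectoderm, 0.41 to 0.96 in endoderm and -0.20 (without hPSC repeat 1) to 0.35 in mesoderm. The adjusted p of choice ranged for PCDHA from 0.0495 to 0.828 in ectoderm and 0.0105 to 0.494 in mesoderm, and for PCDHG from 0.000504 to 0.0753 in ectoderm, 0.0341 to 0.454 in endoderm and 0.000778 to 0.150 in mesoderm. None of the 13 shares and numbers passed under any alternative run, which the design nearly fixes and which shows no stability. Members under 20 reads were limited by depth.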
